A study of Homo sapiens with 9 samples.

Results

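Chromatin immunoprecipitation with sequencing (ChIP-seq) mapped transcription factors of the ETS family in RWPE-1 cells, an immortalised, non-tumorigenic line of human prostate epithelium. The regions described here carried endogenous ETS1 together with at least one of the ectopic factors ERG and ETV1, and no GABPA, ETV4 or JUND. They were chosen by the overlap of peaks alone, by pooling the peaks of all 6 lists and joining peaks that overlapped by at least 1 bp. Of 24166 joined regions, 319 met this rule. Each of them held 1 ETS1 peak, so they took up 14.6% of the ETS1 peaks. Counts of partners follow from the overlaps that selected the regions, and are given without a test.

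ETS1 was precipitated from RWPE-1 cells without retroviral expression, with an antibody against the protein. ERG was mapped as FLAG-ERG and ETV1 as FLAG-ETV1, each with an antibody against FLAG in RWPE-1 cells that expressed the fusion from a retrovirus. GABPA was mapped by its own antibody in RWPE-1 cells without retroviral expression, and ETV4 and JUND by theirs in PC3 cells, which derive from a metastasis of a prostate cancer, also without it. The series also has input DNA of each line and a FLAG antibody control in RWPE-1 without a fusion, which were not analysed here. There was 1 library for each factor, and spread between replicates cannot be given. The intervals below are Wilson 95% binomial intervals for shares and order-statistic 95% intervals for medians. They cover counting error only, with regions treated as independent. The deposited lists hold positions without heights, so the depth behind a peak is unknown. Antibody, expression of a fusion and factor changed together between the ETS1 library and the FLAG libraries, and their effects cannot be told apart.

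ETS proteins bind DNA through the winged-helix ETS domain that gives the family its name, and nearly all of them recognise a short site with a GGA core. Many family members are present in the same cell and can occupy the same sites. ETS1 is phosphorylated by the Ras/MAPK kinases ERK1 and ERK2, which raises its activity as an activator. ERG and ETV1 are normally low or absent in prostate epithelium and are switched on by chromosomal rearrangements in many prostate cancers. GABPA is a broadly expressed family member known for promoters of housekeeping genes. JUND is a subunit of AP-1, a factor whose sites often lie beside ETS sites in enhancers.

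ETV1 was the more frequent partner of ETS1 by number of regions. Of the 319 shared regions, 182 held ETS1 with ETV1 and no ERG, or 57.1% (51.6 to 62.4%). Another 60 held ETS1 with ERG and no ETV1, or 18.8% (14.9 to 23.5%). All 3 factors were present in 77, or 24.1% (19.8 to 29.1%). The deposited ETV1 list is 3.78 times as long as the ERG list, and whether this accounts for the order was not tested. Among regions without GABPA, ETV4 or JUND, ETS1 was present at 137 of 1790 with ERG and at 259 of 7890 with ETV1. Per region, ETS1 was thus more frequent with ERG.

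Seen from the ectopic factors, ETS1 was most frequent where ERG and ETV1 lay together. Among regions without GABPA, ETV4 or JUND, ETS1 was present at 3.47% of the 9202 regions with ERG or ETV1. It was present at 16.1% of the 478 regions with ERG and ETV1 (13.1 to 19.7%). At the 1312 regions with ERG and no ETV1 it was present at 4.57% (3.57 to 5.84%), and at the 7412 with ETV1 and no ERG at 2.46% (2.13 to 2.83%). The 3 intervals did not overlap, but the regions counted are those that the rule selected, so this is not a test.

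The same regions can be counted from the side of ETS1, which restates the shares above and adds no separate evidence. An ETV1 peak was present at 26.7% of all 1790 ERG regions without GABPA, ETV4 or JUND. Where ETS1 was also present, ETV1 was found at 77 of the 137 ERG regions, or 56.2% (47.8 to 64.2%). Without ETS1 it was found at 401 of 1653, or 24.3% (22.3 to 26.4%). An ERG peak was present at 6.06% of all 7890 ETV1 regions of this kind. It was found at 29.7% of the 259 ETV1 regions with ETS1 (24.5 to 35.6%) and at 5.25% of the 7631 without (4.78 to 5.78%). These shares describe how the 3 lists overlapped in these libraries. No test was made, since each list is 1 library and the overlaps themselves defined the regions.

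**Figure D1:**
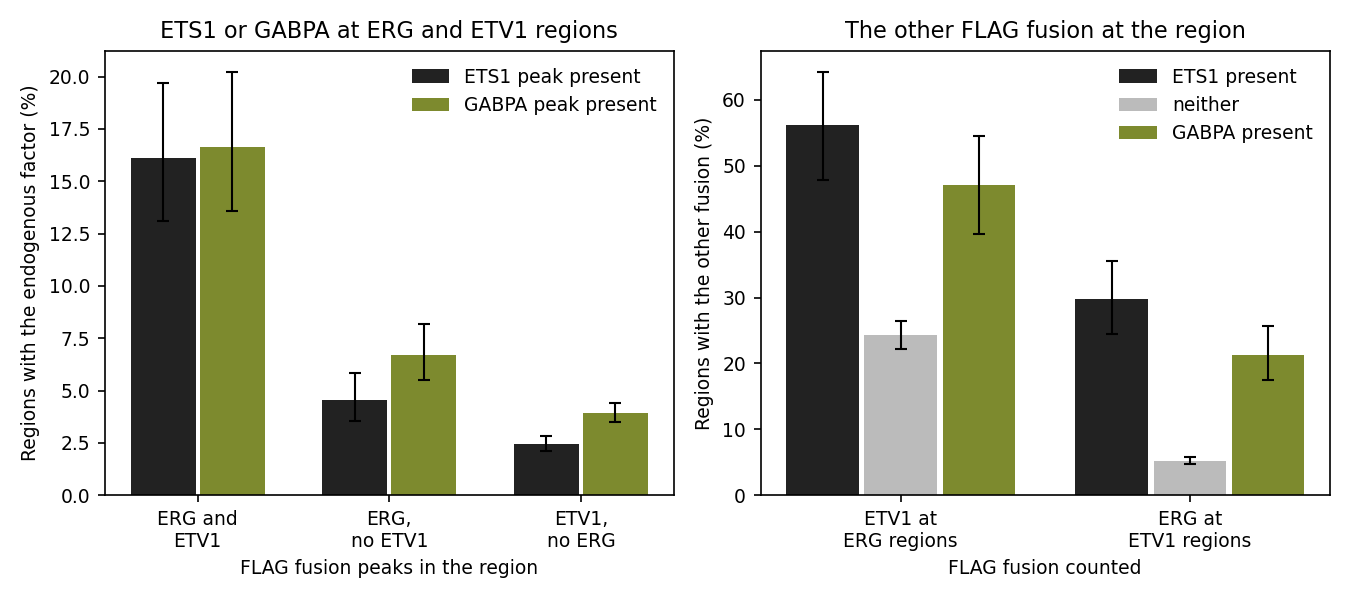
Left, the percentage of regions with an ETS1 peak (black) or a GABPA peak (green) among regions with ERG and ETV1, with ERG alone and with ETV1 alone. Right, the percentage of ERG regions with ETV1 and of ETV1 regions with ERG, for regions with ETS1, with GABPA, and with neither. Bars are shares and error bars are Wilson 95% intervals. ETS1 was present at 16.1% of regions with both fusions, against 4.57% and 2.46% of regions with one.

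GABPA, which was removed from the shared regions by the rule, showed a like order in regions without ETS1, ETV4 or JUND. It was present at 4.98% of the 9349 such regions with ERG or ETV1. The share was 16.6% where ERG and ETV1 lay together (13.6 to 20.2%), 6.71% with ERG alone (5.49 to 8.17%) and 3.93% with ETV1 alone (3.52 to 4.40%). ETV1 was present at 47.1% of the 170 ERG regions with GABPA (39.7 to 54.5%), an interval that overlapped that of the ERG regions with ETS1. The same order of shares was thus seen with either endogenous factor.

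The shares were also compared within parts of the deposited files, since the labels do not describe the order of the rows. When the ERG rows were divided into 5 parts of 20%, ETV1 was present at 48.1, 55.2, 56.7, 60 and 61.5% of the ERG peaks with ETS1, from the first part to the last. For ERG peaks without ETS1 the values were 22.9, 24.9, 23.8, 26.1 and 23.6%. The value with ETS1 was the higher one in each part of the ERG file, although each of its parts held only 25 to 30 peaks. In the ETV1 file, ERG was present at 33.3, 20.7, 31.0, 45.2 and 22.0% of the peaks with ETS1 and at 4.72 to 5.46% of those without. Again no part of the file reversed the order. The parts are slices of the same lists and overlaps, so they are not repeats and add no separate evidence.

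Along the ETS1 file itself, the shared regions lay towards the first rows. They took up 21.1% of the first 20% of rows (17.5 to 25.2%), then 16.3, 12.8 and 12.2%, and 10.8% of the last (8.20 to 14.04%). ETS1 with ETV1 alone took up 12.8% of the first part (10.025 to 16.3%) and 5.96% of the last (4.10 to 8.59%), without overlap of the intervals. Regions with all 3 factors took up 4.59, 3.21, 2.98, 4.59 and 2.29%, and ETS1 with ERG alone 3.67, 3.67, 2.06, 1.83 and 2.52%, with overlapping intervals of the first and last parts for both. ETS1 with GABPA alone took up 8.72% of the first part (6.42 to 11.7%) and 2.52% of the last (1.41 to 4.46%), whereas ETS1 peaks with no other factor made up 58.7% of the first part and 81.4% of the last. By count, ETV1 alone went from 56 peaks in the first part to 26 in the last, and GABPA alone from 38 to 11. Regions with all 3 factors went from 20 to 10, and ERG alone from 16 to 11. The counts with ERG are small, so the overlap of their intervals does not set them apart from ETV1 alone. Among shared regions with ERG, the share that also held ETV1 was 55.6, 46.7, 59.1, 71.4 and 47.6% over the 5 parts, with no steady direction.

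**Figure D2:**
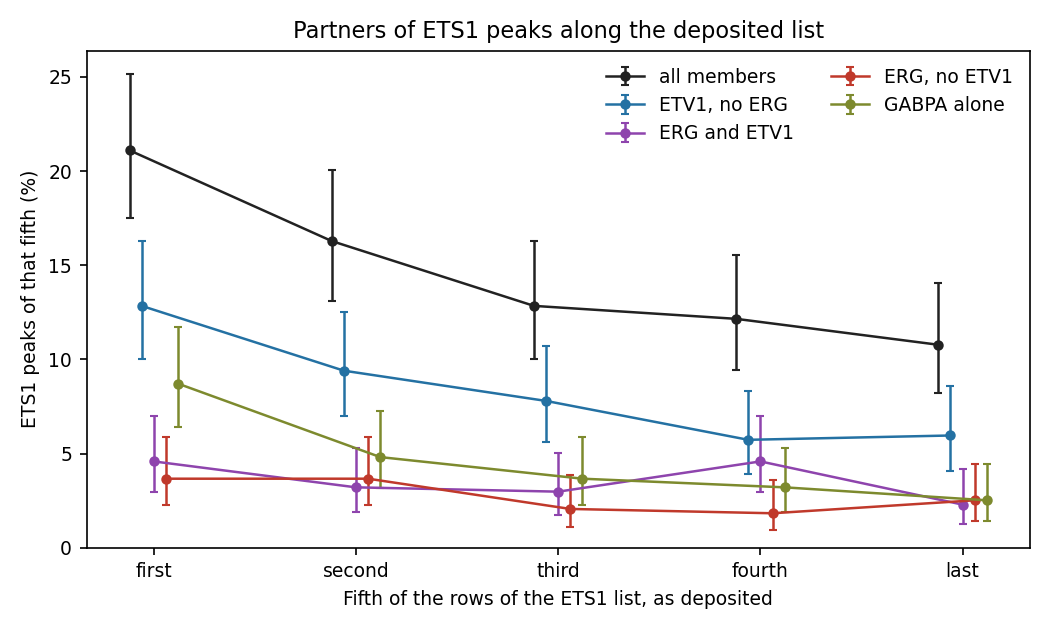
The percentage of ETS1 peaks in each 20% part of the deposited ETS1 list (first to last rows) that lay in shared regions (black), in their 3 kinds, and in regions with GABPA alone (green). Points are shares and error bars Wilson 95% intervals. Shared regions took up 21.1% of the first part and 10.8% of the last.

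The FLAG lists were more even. Shared regions took up 5.40 to 6.49% of each part of the ERG file and 2.40 to 3.32% of each part of the ETV1 file. Their mean row position was 49.3% down the ERG file, 49.02% down the ETV1 file and 43.3% down the ETS1 file, where ETS1 peaks with no other factor had a mean of 52.9%. Peak width did not separate these classes. The median width of ETS1 peaks was 492 bp in shared regions and 489 bp in ETS1-only regions.

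The rule kept 57.9% of the ETS1 regions with all 3 factors (49.4 to 65.9%) and 74.3% of those with ETV1 alone (68.5 to 79.4%). It kept 65.2% of those with ERG alone (55.1 to 74.2%), an interval that overlapped those of the other kinds. Before removal, 470 regions held ETS1 with ERG or ETV1, and 151 of them were taken out. GABPA alone took out 104, ETV4 or JUND without GABPA took out 42, and 5 had GABPA and one of the PC3 factors. ETV4 or JUND was present at 16.3% of the 92 regions of ETS1 with ERG alone (10.1 to 25.2%) and at 15.0% of the 133 with all 3 factors (9.95 to 22.1%). At the 245 regions of ETS1 with ETV1 alone the share was 4.90% (2.82 to 8.36%). Over all 10329 regions with ERG or ETV1 the share was 5.39%. Among regions without ETS1, ETV1 alone was also the lowest, at 3.14% (2.78 to 3.55%). There ERG with ETV1 stood above ERG alone, at 18.2% (15.3 to 21.5%) against 10.6% (9.14 to 12.3%), without overlap of the intervals. For each kind the intervals with and without ETS1 overlapped, so the gap between ERG and ETV1 was not limited to ETS1 regions. GABPA was present at 28.6, 19.6 and 21.6% of the regions with all 3 factors, ERG alone and ETV1 alone, with overlapping intervals.

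Peak midpoints give a rough position of binding within a region. Overlap by itself limits the distance between 2 midpoints to the mean of the peak widths, about 487 bp here for ETS1 and ERG. In regions of ETS1 with ERG alone the midpoints lay a median of 105 bp apart (78.5 to 148 bp, n = 60), and 30 of the 60 were within 100 bp. In regions of ETS1 with ETV1 alone the median was 157.5 bp (109.5 to 174.5 bp, n = 182), and 40.7% were within 100 bp (33.8 to 47.9%). The intervals of both medians overlapped. For comparison, ETS1 and GABPA in the 100 regions with those factors alone lay a median of 150 bp apart (114 to 180 bp). ERG and ETV1 in the 401 regions with those alone lay 125.5 bp apart (113.5 to 140 bp). The ETS1 and partner midpoints were thus spaced much as those of other overlapping pairs of lists.

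**Figure D3:**
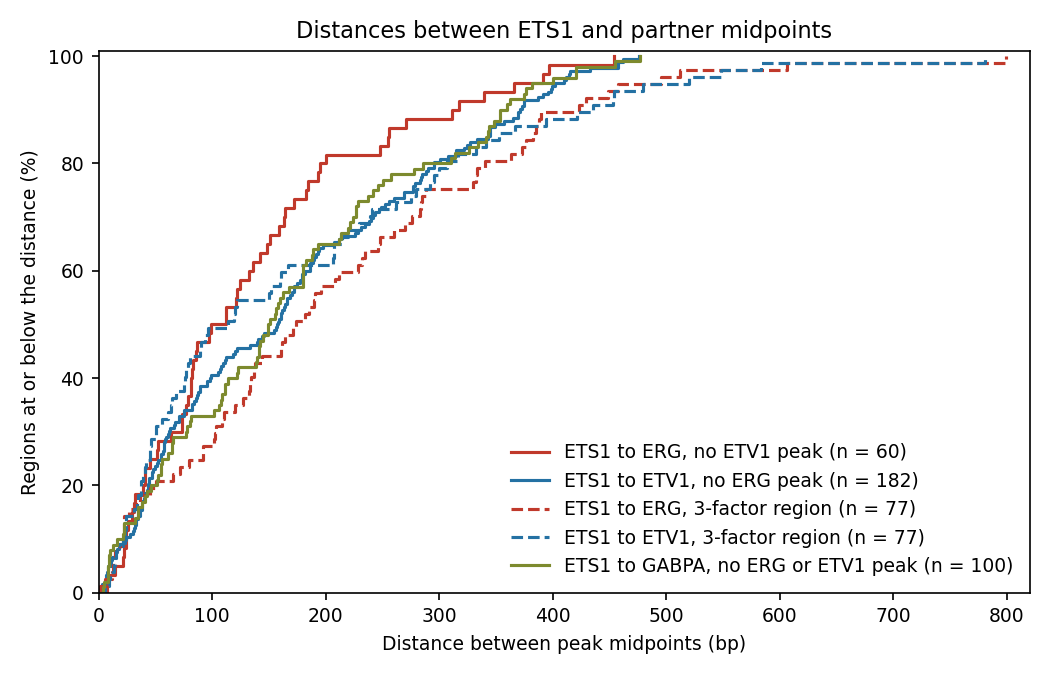
Cumulative percentage of regions (y axis) by the distance between the ETS1 midpoint and the midpoint of ERG (red), ETV1 (blue) or GABPA (green), in bp. Dashed lines are the 77 regions with all 3 factors, where distances can exceed the limit of direct overlap because peaks may be joined through the other partner. The median was 105 bp for ETS1 to ERG where ETV1 was absent and 174 bp where it was present.

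Within the 77 regions with all 3 factors, ETS1 lay nearer to ETV1 than to ERG in the median. The distance from ETS1 to ERG was 174 bp (133.5 to 232 bp) and that from ETS1 to ETV1 113.5 bp (75 to 206.5 bp). That from ERG to ETV1 was 125.5 bp (84.5 to 148 bp). The intervals of the medians overlapped, but they come from the same regions and cannot compare the distances. Midpoints within 100 bp were found for ETS1 and ERG in 27.3% of these regions (18.6 to 38.1%) and for ETS1 and ETV1 in 49.4% (38.5 to 60.3%). Both shares use the same regions and ETS1 peaks, so their separate intervals cannot compare them, and no paired test was made. ERG and ETV1 were the closest pair in 33 regions, ETS1 and ETV1 in 28, and ETS1 and ERG in 16. The midpoint of ETV1 was the middle one in 42.9% of the regions (32.4 to 54.0%), that of ERG in 33.8% (24.2 to 44.9%) and that of ETS1 in 23.4% (15.3 to 33.95%). These intervals overlapped. ETS1 was not in the middle in 59 regions, which by definition places ERG and ETV1 on the same side of it. In 69 regions all 3 peaks had a stretch in common, with a median of 280 bp (range 5 to 471 bp). In the other 8 regions the peaks were joined in a chain.

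**Figure D4:**
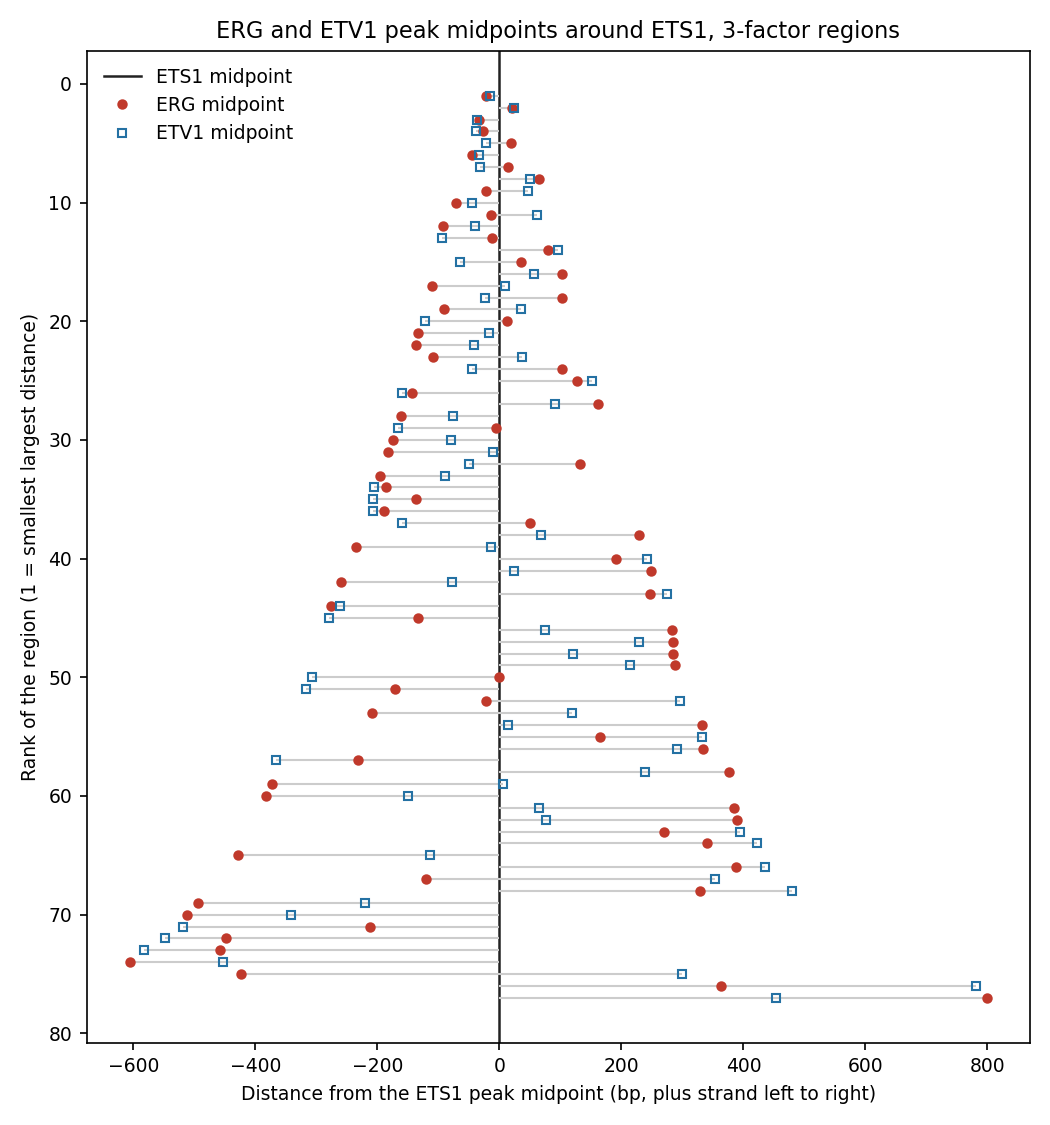
Each of the 77 rows is a region with all 3 factors, ordered by its largest midpoint distance. The x axis gives the distance in bp of the ERG midpoint (red circle) and the ETV1 midpoint (blue square) from the ETS1 midpoint (black line). In 59 regions both symbols are on the same side of the line and in 18 they flank it. The largest distance ran from 22.0 to 799 bp.

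The most compact regions had nearly coincident peaks. At chr10:73439149-73439663 (hg18, as are all positions here) the ERG and ETV1 midpoints lay 22.0 and 15.0 bp to the left of that of ETS1, and 471 bp were common to the 3 peaks. At chr1:146823086-146823603 they lay 21.0 and 24.5 bp to the right, with 464 bp in common. The next were chr1:203357604-203358132, chr1:168030560-168031097, chr13:72253886-72254412 and chr17:30929497-30930024, with largest distances of 37.0, 39.0, 40.5 and 45.5 bp. The first of these regions had a GABPA peak 1.35 kb away, outside the region. For the other 5 the nearest GABPA peak was at least 51.3 kb away.

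The region at chr17:30929497-30930024 was also among the 6 with the lowest mean row position over the 3 files, at 9.58% of the way down. The first by this measure was chr1:36462050-36462675, at 7.01%. There the ERG midpoint lay 11.5 bp to the right and the ETV1 midpoint 122 bp to the left of that of ETS1. The other 4 were chr3:142513037-142513604 (13.5%), chr10:85889059-85889562 (13.6%), chr11:58101784-58102558 (16.5%) and chr2:95194952-95195538 (18.0%). In chr11:58101784-58102558 the 3 peaks were less compact, with a largest distance of 279.5 bp, and an ETV4 peak of PC3 lay 3.76 kb away. A low mean did not place a region early in each file. The ERG peak of chr11:58101784-58102558 lay 29.7% down its list, and the ETV1 peak of chr2:95194952-95195538 lay 41.2% down its list. Regions with a low mean row position were thus not all compact.

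The widest regions were chains. At chr5:89804969-89806268, 1300 bp long, the ETS1 midpoint was 453 bp from that of ETV1 and 799 bp from that of ERG, so ETV1 joined the other peaks. At chr20:34634302-34635572, 1271 bp long, ERG joined ETS1 to an ETV1 peak 780.5 bp away. At chr1:200826753-200827950, 1198 bp long, ETS1 itself was in the middle, 423 bp from ERG and 299.5 bp from ETV1. In the last of these the ERG and ETV1 peaks did not touch. No shared region held more than 3 peaks, and the first of the 77 with that number by position were chr1:15815970-15816894, chr1:16343890-16344859 and chr1:26819497-26820285. The second of them had an ETV4 peak 0.609 kb and a JUND peak 5.61 kb outside it.

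The overlap rule divided a continuous range. For each ETS1 peak of a shared region the larger of its overlaps with ERG and ETV1 was taken. The smallest of these were 15 bp, at the ETS1 peak chr20:29764788-29765228 with ETV1, 21 bp, at chr19:51980966-51981430 with ERG, and 24 bp, at chr4:159812475-159812972 with ETV1. Single overlaps went down to 5 bp, between ETS1 and ERG at the ETS1 peak chr20:33144264-33144764, where ETV1 overlapped ETS1 by more. Just outside the rule, the ETS1 peak chr1:242882508-242883002 ended 2 bp before an ETV1 peak, chr19:41755734-41756217 lay 7 bp from one, and a further ETS1 peak lay 16 bp from an ERG peak. Inside the rule, few regions were near this boundary. This larger overlap was under 50 bp in 9 of the 319 ETS1 peaks and at least 200 bp in 258. Outside the rule, 52 of the 1575 ETS1-only peaks had an ERG or ETV1 peak at a gap of up to 500 bp.

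Shared regions lay somewhat closer to further ETS1 and ERG peaks than regions did in general. Another ETS1 peak was within 10 kb of 9.40% of the shared regions (6.67 to 13.1%), against 5.14% of all regions. It was within 100 kb of 43.9% (38.5 to 49.4%), against 28.7% of all regions. A further ERG peak was within 10 kb of 11.0% (7.995 to 14.9%; all regions 6.29%) and within 100 kb of 45.5% (40.1 to 50.9%; all regions 30.5%). A further ETV1 peak was within 10 kb of 21.9% (17.8 to 26.8%; all regions 15.6%) and within 100 kb of 75.2% (70.2 to 79.7%; all regions 63.1%). These values stood above the background of all regions, yet their intervals overlapped those of regions with ERG and ETV1 alone, which had a further ETS1, ERG or ETV1 peak within 10 kb in 7.98, 11.0 and 19.7% of cases. ETS1-only regions had another ETS1 peak within 10 kb in 5.78% of cases (4.73 to 7.04%), an ERG peak in 8.25% and an ETV1 peak in 20.3%. Within 100 kb their values were 39.2, 38.4 and 70.6%. At both distances and for each of these factors, the intervals of ETS1-only and shared regions overlapped.

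Within 10 kb, peaks of the factors that the rule removed were about as frequent around the shared regions as around regions in general. A GABPA peak lay within 10 kb of 17.6% of the shared regions (13.8 to 22.1%), against 15.2% of all regions and 17.0% of ETS1-only regions (15.2 to 19.0%). Within 100 kb the share was 67.1% (61.8 to 72.0%), against 59.5% of all regions and 66.9% of ETS1-only regions (64.5 to 69.1%). An ETV4 peak was within 10 kb of 5.33% (3.35 to 8.36%; all regions 6.48%) and a JUND peak of 5.96% (3.85 to 9.11%; all regions 6.13%). Within 100 kb the values were 23.5% for ETV4 (all regions 27.7%) and 33.2% for JUND (all regions 30.9%). Of the 60 regions of ETS1 with ERG alone, 0 had an ETV4 peak within 10 kb, which allows a share of up to 5% if the limit of a count of 0 is set at 3 counts (Wilson upper bound 6.02%).

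**Figure D5:**
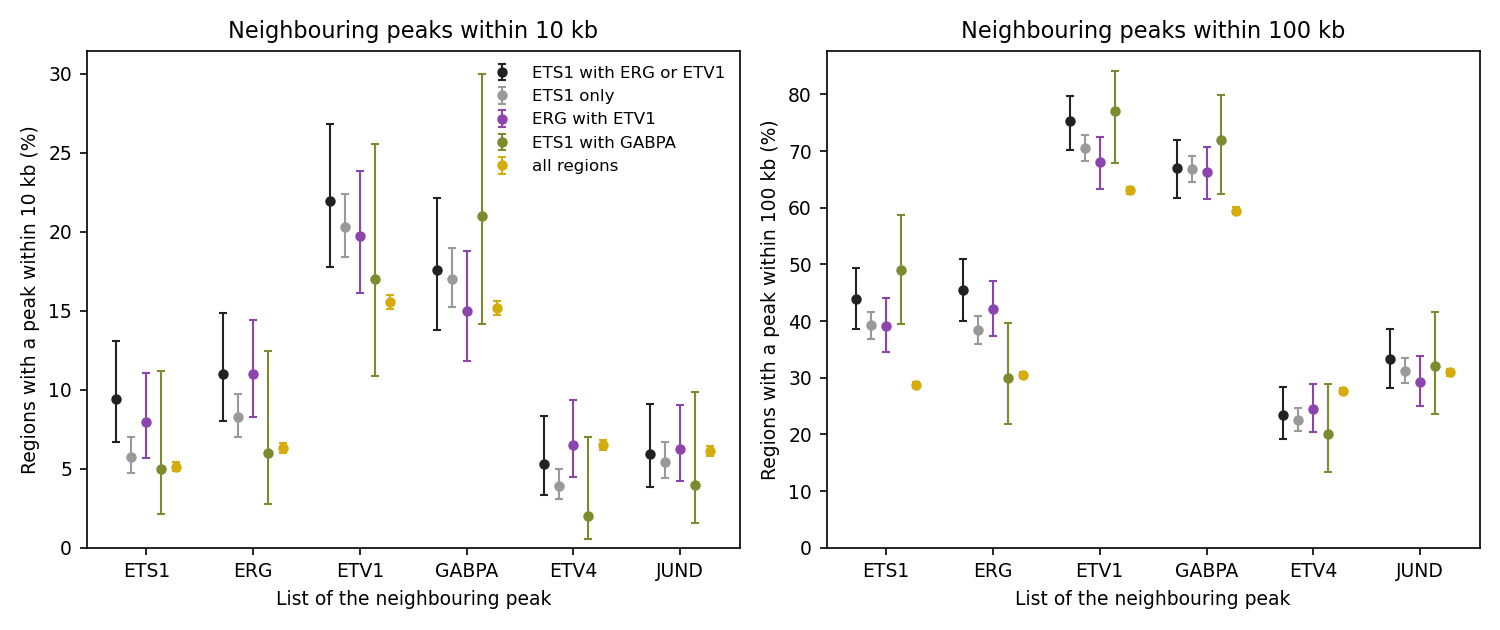
Percentage of regions with a further peak of each list (x axis) within 10 kb (left) and 100 kb (right), peaks of the region itself left out. Points are shares with Wilson 95% intervals for shared regions (black), ETS1-only regions (grey), regions of ERG with ETV1 (purple), of ETS1 with GABPA (green) and all regions (yellow). Another ETS1 peak was within 100 kb of 43.9% of shared regions and of 28.7% of all regions.

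Shared regions were mostly far from each other. The median gap to the nearest other shared region was 1205 kb, and 11.0% had one within 100 kb (7.995 to 14.9%), against 6.21% of all regions. Of the most similar classes, a shared region lay within 100 kb of 9.27% of ETS1-only regions (7.94 to 10.8%), 9.98% of regions of ERG with ETV1 (7.41 to 13.3%) and 14% of regions of ETS1 with GABPA (8.53 to 22.1%), so the intervals overlapped. Within 10 kb the share was 3.76% (2.16 to 6.46%), against 0.89% of all regions. It was 0.952% for ETS1-only regions (0.578 to 1.57%), 1.75% for ERG with ETV1 (0.848 to 3.56%) and 2% for ETS1 with GABPA (0.550 to 7.001%), the last 2 with overlapping intervals. The 12 shared regions with another within 10 kb formed 6 pairs, which were looked up after the count was seen. Both regions of a pair are counted, so the interval around 3.76% is too narrow. The difference from ETS1-only regions was not tested. The closest pair was chr1:200824784-200825360, with ETS1 and ETV1, and chr1:200826753-200827950, with all 3 factors, 1392 bp apart. Next were chr1:203530049-203530633 and chr1:203534090-203534655, both with ERG, at 3456 bp. The pair chr19:12757445-12757936 and chr19:12761674-12762373 lay 3737 bp apart. The others were on chromosomes 9, 11 and 16, with gaps of 6894, 6952 and 7029 bp. In 5 of the 6 pairs the 2 regions differed in their partners, which was not compared with pairs of shared regions in general.

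By windows of 1 Mb, the densest held 4 shared regions. The window chr1:202000001-203000000 had 12 ETS1, 16 ERG, 15 ETV1 and 14 GABPA peaks. Its shared regions were chr1:202522932-202523657 with ERG, chr1:202599038-202599606 and chr1:202613526-202614147 with ETV1, and chr1:202647044-202647629 with all 3 factors. The window chr20:42000001-43000000 also had 4, with 7 ETS1, 10 ERG and 19 ETV1 peaks. There chr20:42464573-42465069 and chr20:42971823-42972423 held ERG, and chr20:42010977-42011875 and chr20:42583495-42584271 held ETV1. The adjoining window chr1:203000001-204000000 had 3. Most shared regions stood alone in their window, as 212 windows held 1, 42 held 2 and 5 held 3.

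Shared regions were present on all 22 autosomes. Chromosome 1 held 54 of them, or 16.9% (13.2 to 21.4%), beside 14.4% of the ETS1, 15.0% of the ERG and 11.6% of the ETV1 peaks. Chromosome 20 held 35, or 11.0% (7.995 to 14.9%), beside 8.03, 7.30 and 5.54%. On chromosome 20 the interval lay above the ETV1 and ERG shares and included that of ETS1. Chromosome 5, which held 9.64% of the ERG peaks, 6.88% of the ETS1 and 7.49% of the ETV1 peaks, held 5.02% of the shared regions (3.11 to 7.99%). That interval included the ETS1 and ETV1 shares and lay below that of ERG. The share of ETS1 peaks that lay in shared regions ran from 10.7% on chromosome 5 (6.67 to 16.6%) to 20% on chromosome 20 (14.7 to 26.5%) among the 9 chromosomes with at least 100 ETS1 peaks. The intervals of these 2 extremes overlapped. On X, 0 of 9 ETS1 peaks lay in a shared region, which allows a share of up to 33.3% by the same limit of 3 counts (Wilson upper bound 29.9%).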

How the data were processed

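Each list was deposited by the authors as 3 columns without a header, a chromosome, a start and an end in bp, in no other unit. The build is hg18 and the library kit was Illumina's for ChIP-seq, per the labels. For the peak caller, aligner, control library and threshold, nothing is given in the sources used here, and depth is unknown. Samples were grouped by title, with 1 library per factor, so no test was run and no p-value is given. Starts were read as counted from 0 and are printed from 1.

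Overlapping peaks (1 bp or more) were joined into regions across the 6 lists. Midpoint distances use the closest peaks of each pair in a region, and gaps run from region edge to peak edge. Regions named are the 6 most compact and the 6 of lowest mean row position among those with all 3 factors. Also named are the widest, those with most peaks, those in the densest windows, and those at the edge of the rule. The regions, lists and comparisons were chosen with earlier results of these data known. Genes, promoters and motifs were not used here, since the tables at hand are on another build. Alternatives covered overlap, joining, chromosomes, removal and distances. The steps were tested on simulated data. The software was matplotlib 3.10.9, pandas 2.3.3, scipy 1.17.1, numpy 2.4.6 and Python 3.11.15.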

Additional observations from a re-analysis of the deposited data

How the results depend on the processing

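The number of shared regions was 254 with a reciprocal overlap of 50%, 268 with at least 200 bp, 363 with peaks up to 500 bp apart joined, 309 with peaks set to 400 bp 324 by direct overlap, 361 with ETV4 and JUND regions kept and 423 with GABPA regions kept, all within 1.5 times 319. Stricter overlap shortens midpoint distances by construction. The ETS1 to ERG median became 98.5 bp with a reciprocal overlap of 50%. That of ETS1 to ETV1 became 75.8 bp with it, 87.0 bp with at least 200 bp, and 167.5 bp with joining up to 500 bp. A GABPA peak lay within 10 kb of 22.4% of the regions under reciprocal overlap, within 5 kb of 11.3% and within 50 kb of 46.1%, and another shared region within 500 kb of 32.3%. The densest 5 Mb window held 10 shared regions. Of the ETS1 peaks in shared regions, 61.1% lay in the first 50% of rows. Over settings added after seeing the data, among them direct overlap and no removal, ETV1 was present at 47.7 to 59.1% of ERG regions with ETS1 and 18.4 to 28.1% without. ERG was present at 27.04 to 35.2% of ETV1 regions with ETS1 and 4.19 to 7.04% without. Promoter and motif alternatives were not run. No paired analysis across samples was possible because each factor has 1 library. Unknown depth and thresholds limit all absences, since a factor without a peak may still bind.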
